A study of Mus musculus with 16 samples.

Results

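The epithelial sodium channel genes Scnn1a, Scnn1b and Scnn1g were followed through mouse lung together with Cftr, Atp1b1, Nedd4l and Aqp1, which take part in the transport of salt and water across epithelia and vessels. These 7 genes were matched by gene name among 34779 gene names on the array, of which 25574 could be tested. The set was assembled because Scnn1g read lower in ARF-DTR lung given diphtheria toxin (DT) than in ARF-DTR lung given phosphate-buffered saline (PBS), a difference not seen among the arrays that held the wild type samples. The values of Scnn1g in those groups therefore chose the set, and they are given as a description with no test.

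Total RNA of whole homogenised lung from female mice was measured on 16 single-colour arrays, 1 array per sample. ARF-DTR is a transgenic line known to carry a DT receptor driven by the promoter of Arf, a tumour suppressor transcript of the Cdkn2a locus, so that DT can remove cells that use this promoter. The ARF-DTR groups were 4 untreated samples at 2 months of age, 4 samples at 12 months given PBS and 4 samples at 12 months given DT. Wild type mice, which lack the transgene, gave 2 samples with PBS and 2 with DT at 12 months, and DT was injected into the peritoneal cavity at 50 microgram per kg, every 2 weeks over 1 month. Whether each sample was a separate mouse is not in the labels, so p-values measure only how far these samples spread, which could be technical. The free description of wild type PBS replicate 1 names DT, whereas its title, source and treatment say PBS, and the latter were used.

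The groups were not spread over the slides. Slide 1 held ARF-DTR lung at 2 months and ARF-DTR lung with PBS, and slide 2 held the ARF-DTR samples given DT and all 4 wild type samples. Age in ARF-DTR and DT in wild type were thus compared within 1 slide, whereas the effect of DT in ARF-DTR and the effect of genotype under PBS were compared across slides. In the comparisons across slides, the slide and the condition cannot be told apart. The median absolute log2 difference per gene between a pair of arrays was 0.15 for arrays of 1 group, 0.18 for arrays of different groups on 1 slide and 0.27 for arrays of different slides. Levels below are log2 signals with the 75th percentile of the array, a raw signal of 613 to 1088, set to 0. Markers of alveolar type 1, alveolar type 2 and club cells, which define lung, were above background, whereas the kidney tubule genes Slc12a1, Slc12a3 and Kap were not.

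The epithelial sodium channel lets sodium enter through the apical membrane of epithelial cells, which the sodium pump then moves out at the basolateral side, and water follows. In the lung this absorbs fluid from the airspaces, at birth and whenever the alveoli flood. The channel is assembled from alpha, beta and gamma subunits encoded by Scnn1a, Scnn1b and Scnn1g, and is removed from the membrane after ubiquitination by the ligase encoded by Nedd4l. CFTR is an apical chloride and bicarbonate channel, and Aqp1 encodes a water channel that in lung is known mainly from endothelium.

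All 7 genes were well above background on all 16 arrays. Each was read by 1 probe of 60 bases except Nedd4l, which had 2. On mouse build mm9, the probe of Scnn1a lies at chr6:125294843-125294902, that of Scnn1b at chr7:129061584-129061643 and that of Scnn1g at chr7:128911932-128911991. The neighbours Scnn1g and Scnn1b, on chromosome 7, have 1 annotated gene between them, the long noncoding RNA gene Gm36848. The probes of the other genes lie at chr6:18270974-18271033 for Cftr, at chr1:166368263-166368322 for Atp1b1 and at chr6:55298480-55298539 for Aqp1. The last 30 bases of the 3 subunit probes are shown because the Scnn1g probe differs from the other subunits' probes in base composition, which matters below. Capitals mark AATAAA, the usual polyadenylation hexamer.
Scnn1g probe, bases 31 to 60: gtttataAATAAAgttttattgataatcga
Scnn1b probe, bases 31 to 60: agagttacaaccattgtcagtgcctcgttt
Scnn1a probe, bases 31 to 60: ctttgctcatttttgtatccttccgttcta
In these stretches 5 of 30 bases are G or C for Scnn1g, 13 for Scnn1b and 11 for Scnn1a. Over the whole probe, 12 of 60 bases (20%) are G or C for Scnn1g, against 45% for Scnn1a and for Scnn1b. The other tested probes hold 43.3% for Cftr, 38.3% for Atp1b1, 35% for Nedd4l and 30% for Aqp1.

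Scnn1g, the gamma subunit, read at 0.73, 0.93, 0.69 and 0.71 in the 4 untreated 2-month ARF-DTR samples. At 12 months with PBS it read at 0.92, 0.79, 0.94 and 0.82. With DT the ARF-DTR samples read at -0.98, -0.56, -1.39 and -1.20. All 4 samples given DT lay below all 8 ARF-DTR samples of the other groups. In wild type lung Scnn1g read at -1.04 and -1.22 with PBS and at -1.62 and -0.87 with DT. The wild type samples that received no DT were thus as low as the ARF-DTR samples that did. As raw signals, the 8 arrays of slide 1 spanned 1412 to 1889 and those of slide 2 spanned 217 to 493.

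**Figure D1:**
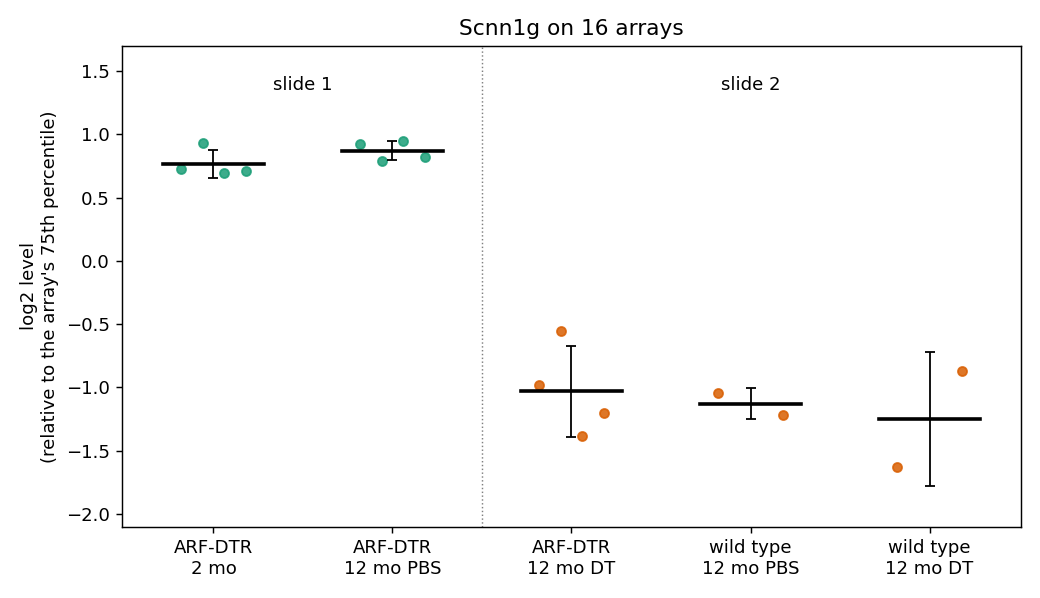
Log2 level of Scnn1g on each of the 16 arrays (points; green for slide 1, orange for slide 2), with the group mean (line) and SD (bars); the dotted line separates the slides. The 8 arrays of slide 1 sit between 0.69 and 0.94 and the 8 arrays of slide 2 between -1.62 and -0.56.

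The group means of Scnn1g, in falling order, were 0.87 ± 0.08 (SD, n = 4) in ARF-DTR with PBS and 0.76 ± 0.11 (SD, n = 4) at 2 months. They went on to -1.03 ± 0.36 (SD, n = 4) in ARF-DTR with DT, -1.13 ± 0.12 (SD, n = 2) in wild type with PBS and -1.25 ± 0.53 (SD, n = 2) in wild type with DT. Neighbours in this order overlapped, except at the step between the 2-month and the DT samples, which is also the step between the slides. Scnn1g in ARF-DTR was lower with DT than with PBS by 3.74-fold, a log2 difference of -1.90 ± 0.17 (SE). ARF-DTR lung was 4.0-fold higher than wild type lung when both had PBS, a difference of 2.00 ± 0.21. Both of these values cross the slides and chose the set. Within slide 2, ARF-DTR with DT differed from wild type with PBS by 0.10 ± 0.21 and from wild type with DT by 0.22 ± 0.21. Wild type with DT differed from wild type with PBS by -0.12 ± 0.24. Without wild type DT replicate 1 the last pair of values became -0.16 and 0.26, and without replicate 2 they became 0.59 and -0.49. Within slide 1 the difference between 12-month PBS and 2-month lung was 0.11 ± 0.17.

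Set against the slide alone, Scnn1g averaged 0.82 on slide 1 and -1.11 on slide 2, a difference of 1.93 or 3.80-fold. It was the only one of the 7 genes whose slides did not overlap. Slides did not overlap for 2538 of the 25574 genes (9.92%), of which 1235 were higher on slide 1 and 1303 lower. The difference of Scnn1g was the 161st in size, and 26 genes (0.102%), Scnn1g included, were higher on slide 1 by at least as much. The slide differences of the other members were 0.02 for Scnn1a, 0.25 for Scnn1b, 0.49 for Cftr, -0.19 for Atp1b1, 0.08 for Nedd4l and -0.19 for Aqp1.

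The slide difference varied with the base composition of the probe, in both the lowest and the highest classes. The tested probes had a median G and C content of 43.3%, and 37 genes (0.145%), Scnn1g among them, had a probe at or below 20%. Of the other 36, 34 were higher on slide 1 and 2 lower, with a median difference of 0.77 and a range of -1.48 to 2.15. All arrays of slide 1 lay above all arrays of slide 2 for 16 of these 36 genes, and the reverse held for 0. Of the 36, 10 were higher on slide 1 by at least 1 log2 unit, and 1 by at least as much as Scnn1g. Over the 381 genes with a probe of 30% or less, the median difference was 0.23, with 22.3% wholly higher on slide 1 and 0% wholly lower. Among the 9384 genes with probes over 40 and up to 45%, the range that holds the Scnn1a, Scnn1b and Cftr probes, the shares were 4.36% and 6.19%. Probes rich in G and C were also higher on slide 1, with a median of 0.24 and 11.3% wholly higher for those over 55 and up to 60%, and a median of 0.18 over 60%. Each array was also centred within classes of probe composition, an alternative chosen after seeing the data. Scnn1g in ARF-DTR was then lower with DT than with PBS by a log2 difference of -1.21. The difference of ARF-DTR with PBS from wild type with PBS was then 1.21. The part of probe composition in the Scnn1g values was not tested beyond these figures.

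**Figure D2:**
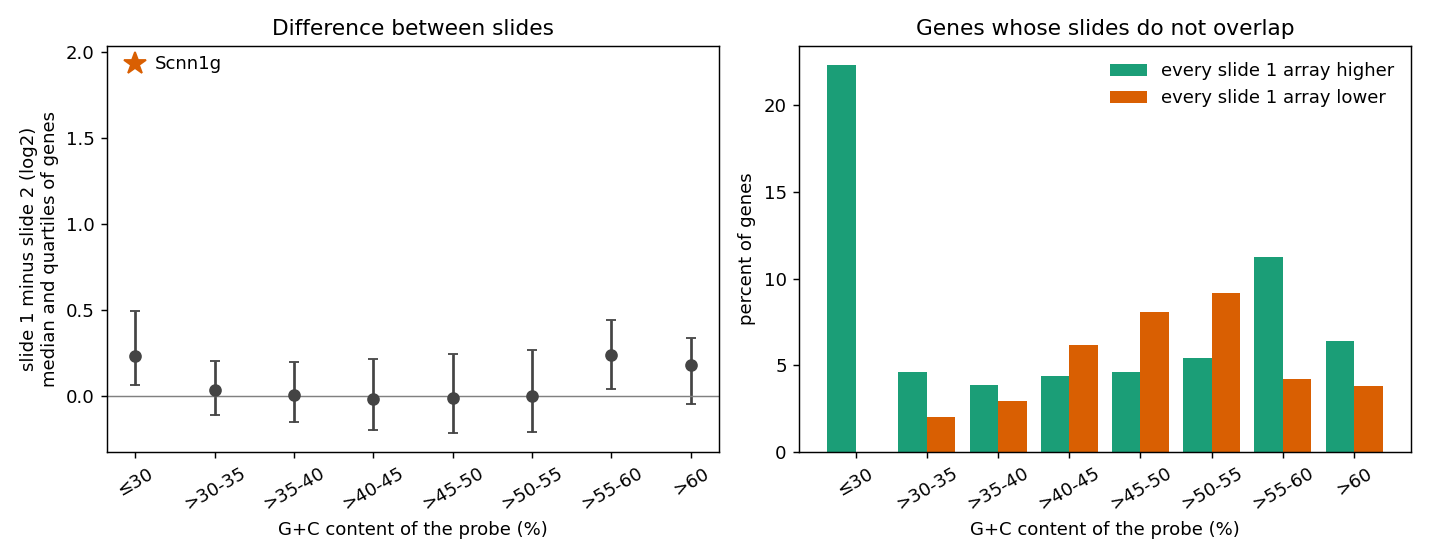
Left, median (points) and quartiles (bars) of the log2 difference between slide 1 and slide 2 for genes grouped by the G and C content of their probe, with Scnn1g as a star at 1.93; right, the percent of genes in each group with every slide 1 array higher (green) or lower (orange) than every slide 2 array. Probes of 30% or less show a median of 0.23 and 22.3% of genes wholly higher on slide 1.

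The genes most like Scnn1g over the 16 arrays were ranked by the root mean square log2 difference after each gene was centred on its own mean. The spread of Scnn1g itself on this measure was 0.99. The 8 closest ranged from 0.24 to 0.30 and were Psg16, Gm5067, the pseudogene Cyp4b1-ps2 and 5 features without a gene symbol (A_55_P2175925, A_55_P2057976, TC1660207, NAP094054-001 and NAP028285-1). Their probes hold 35 to 45% G and C, and they were higher on slide 1 by 1.59 to 2.14. None of the 8 belongs to the set. Of the 25573 genes compared, Cftr ranked 3376 and Scnn1b 4376, and Nedd4l, Scnn1a, Aqp1 and Atp1b1 ranked between 8680 and 18450. Over all 16 arrays the slide difference dominated this measure. Over the 8 arrays of slide 2 alone, the spread of Scnn1g was 0.31. There Scnn1a ranked 917 at 0.24, Scnn1b 1711 at 0.26 and Aqp1 2698 at 0.27. Over the 8 arrays of slide 1, that spread was 0.10. On that slide Scnn1a ranked 7575 at 0.15, Scnn1b 8728 at 0.16 and Aqp1 8456 at 0.16, distances larger than the spread. These ranks are a description, and all points share the same arrays.

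Scnn1a encodes the alpha subunit, which is required for a working channel. It read at 4.75, 4.92, 4.35 and 4.59 in 2-month ARF-DTR lung, and at 4.62, 4.76, 4.57 and 4.56 at 12 months with PBS. With DT it read at 4.74, 4.85, 4.40 and 4.45. In wild type lung it read at 4.67 and 4.46 with PBS, and at 4.67 and 4.75 with DT. The 5 groups overlapped on both slides. DT and PBS in ARF-DTR differed by -0.02 ± 0.13, and ARF-DTR with DT and wild type with PBS by 0.04 on the log2 scale.

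Scnn1b, the beta subunit, read at 2.19, 2.12, 2.26 and 2.21 at 2 months and at 2.01, 2.29, 2.26 and 2.17 at 12 months with PBS. The ARF-DTR samples with DT read at 2.02, 2.03, 1.50 and 1.80, and replicates 3 and 4 were the lowest of all 16 arrays. The wild type samples read at 2.17 and 2.05 with PBS and at 1.87 and 2.10 with DT. In ARF-DTR, DT and PBS differed by -0.34 ± 0.11, and their samples overlapped. Within slide 2 the ARF-DTR samples with DT lay below both wild type PBS samples, with a difference of -0.27 ± 0.13, but overlapped those given DT, with a difference of -0.15.

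Cftr was dim, with raw signals from 84.6 to 335, and had, apart from Scnn1g, the widest spread, an SD of 0.47 over the 16 arrays. It read at -3.01, -1.56, -1.38 and -2.08 at 2 months and at -1.62, -2.20, -2.22 and -1.61 at 12 months with PBS. With DT it read at -2.47, -2.30, -2.46 and -2.30, which was below all 4 PBS samples but within the range of the 2-month samples. The wild type samples read at -2.86 and -2.13 with PBS and at -2.48 and -2.59 with DT. The difference between DT and PBS in ARF-DTR was -0.47 ± 0.30, and that between ARF-DTR and wild type with PBS was 0.58 ± 0.36. Within slide 2, ARF-DTR and wild type lung given DT differed by 0.15.

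Atp1b1 encodes the beta subunit of the sodium pump, which is needed to bring the pump to the cell surface. It read at 4.45, 4.46, 4.40 and 4.44 at 2 months, at 4.25, 4.25, 4.34 and 4.52 at 12 months with PBS, and at 4.62, 4.52, 4.58 and 4.61 with DT. The samples given DT lay just above those given PBS, where the highest PBS sample was 4.521 and the lowest DT sample 4.522. The difference, which crosses the slides, was 0.24 ± 0.07. In wild type lung Atp1b1 read at 4.55 and 4.41 with PBS and at 4.74 and 4.57 with DT. Both wild type DT samples lay above both PBS samples, as 43.6% of all genes did not overlap in these groups of 2. The wild type difference did not pass (limma adjusted p = 0.475).

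Nedd4l encodes the ligase that marks the channel for removal. Both of its probes lie on chromosome 18. The brighter probe had the narrowest spread of the set, an SD of 0.10 over the 16 arrays. It read at 2.46, 2.57, 2.44 and 2.60 at 2 months, at 2.29, 2.49, 2.54 and 2.51 with PBS and at 2.54, 2.46, 2.36 and 2.36 with DT. The wild type samples read at 2.37 and 2.27 with PBS and at 2.50 and 2.36 with DT. The second probe gave group means from -0.33 to -0.12, and all its groups overlapped. For the brighter probe, the 2-month samples lay above both wild type PBS samples. Those groups differ in slide, genotype, age and injection together, and nothing is read from this.

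Aqp1 read at 6.66, 6.92, 6.76 and 6.57 at 2 months, at 6.70, 6.97, 6.76 and 6.48 at 12 months with PBS and at 6.69, 7.11, 6.84 and 6.95 with DT. In wild type lung it read at 7.04 and 7.08 with PBS and at 6.76 and 6.89 with DT. ARF-DTR lung with PBS lay below wild type lung with PBS by a log2 difference of -0.33 ± 0.14, with the slides differing. This value was -0.01 under quantile normalization and -0.51 when arrays were centred within classes of probe composition. In homogenised lung, fewer cells of a type and less RNA per cell cannot be told apart for any of these genes.

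**Figure D3:**
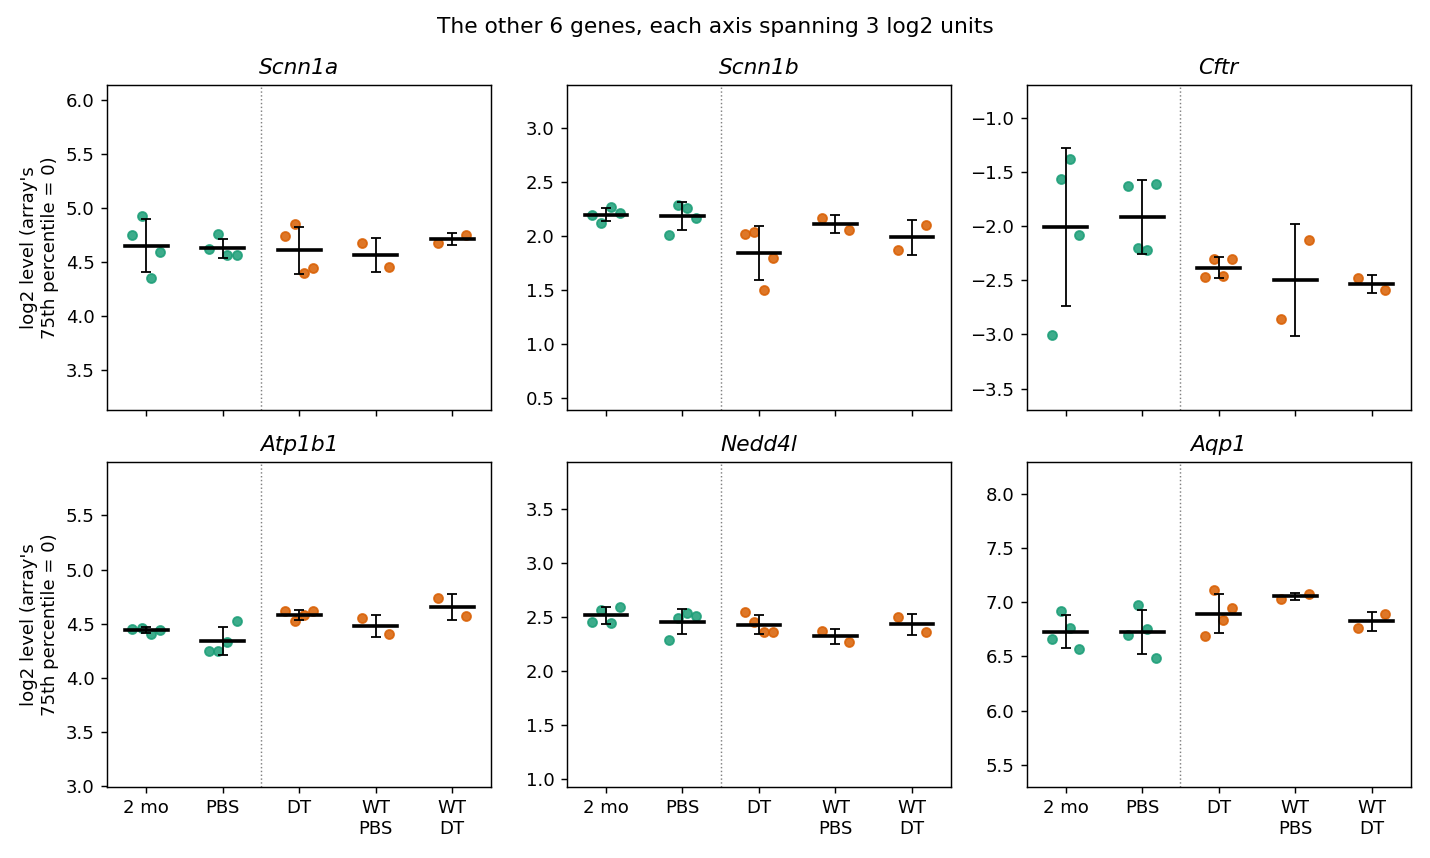
Log2 levels of the other 6 genes on each array (points; green for slide 1, orange for slide 2), with group mean (line) and SD (bars); every panel spans the same 3 log2 units around its own gene and the dotted line separates the slides. No gene shows a gap between slides, and Cftr varies most, with an SD of 0.47 over the 16 arrays.

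With age, 0 of the 6 genes other than Scnn1g passed the test (limma, Benjamini-Hochberg adjusted p under 0.05), against 6.14% of all genes. Of these 6, 0 had an unadjusted limma p under 0.05, a level for which the share of all genes is not given. The samples of the 2 ages overlapped for all 7 genes, whereas 13% of all genes did not overlap. The 2-month samples were untreated and the 12-month samples had PBS, so age and injection changed together. The differences of 12-month minus 2-month lung were -0.03 ± 0.13 for Scnn1a, -0.02 ± 0.11 for Scnn1b, 0.10 ± 0.30 for Cftr, -0.10 ± 0.07 for Atp1b1, -0.06 ± 0.07 for Nedd4l and -0.00 ± 0.11 for Aqp1. The 95% intervals ran from -0.30 to 0.25 for Scnn1a, from -0.25 to 0.22 for Scnn1b and from -0.24 to 0.24 for Aqp1, and were widest for Cftr, at -0.54 to 0.73. Adjusted p-values lay between 0.442 for Atp1b1 and 0.998 for Aqp1. The median over the 7 genes was -0.02, as against -0.03 over all genes tested.

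DT in wild type lung called few genes, 0.176% of those tested, and 0 of the 6 genes passed (limma, Benjamini-Hochberg) while 0 had an unadjusted p under 0.05. In simulated data the fit recovered 67.5% of genes changed 2-fold and 31.0% of those changed 1.5-fold in this comparison. The simulation changed 200 of 25525 genes and drew independent noise for each gene and array. Recovery in the data could differ where these settings do not hold. Atp1b1 differed by 0.18 ± 0.10 (limma adjusted p = 0.475), with both DT samples higher. Aqp1 differed by -0.23 ± 0.16 (limma adjusted p = 0.594), with both DT samples lower. These were the 2 of 7 genes whose samples did not overlap, as did 43.6% of all genes in these groups of 2. Scnn1a differed by 0.15 ± 0.18, Scnn1b by -0.12 ± 0.16, Nedd4l by 0.11 ± 0.10 and Cftr by -0.04 ± 0.42. The sign for Cftr turned under median scaling and quantile normalization.

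In the comparison that chose the set, DT in ARF-DTR, 29.3% of all genes passed. Scnn1g, Cftr and Atp1b1 were the 3 of 7 whose samples did not overlap, against 30.6% of all genes, and since this comparison chose the set nothing is read from that count. The median over the 7 genes was -0.03, against 0.00 over all genes. ARF-DTR with DT against wild type with PBS, within slide 2, called 5.51% of genes, and Scnn1b was the 1 gene of 7 that did not overlap, against 33.9% of all genes. Against wild type with DT, also within slide 2, 0.888% of genes were called, and Cftr was the 1 gene that did not overlap, against 24.4%. For ARF-DTR against wild type with PBS, across slides, 23.6% of genes were called, and Scnn1g and Aqp1 did not overlap, against 48.6%. These comparisons share control or treated samples with each other.

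**Figure D4:**
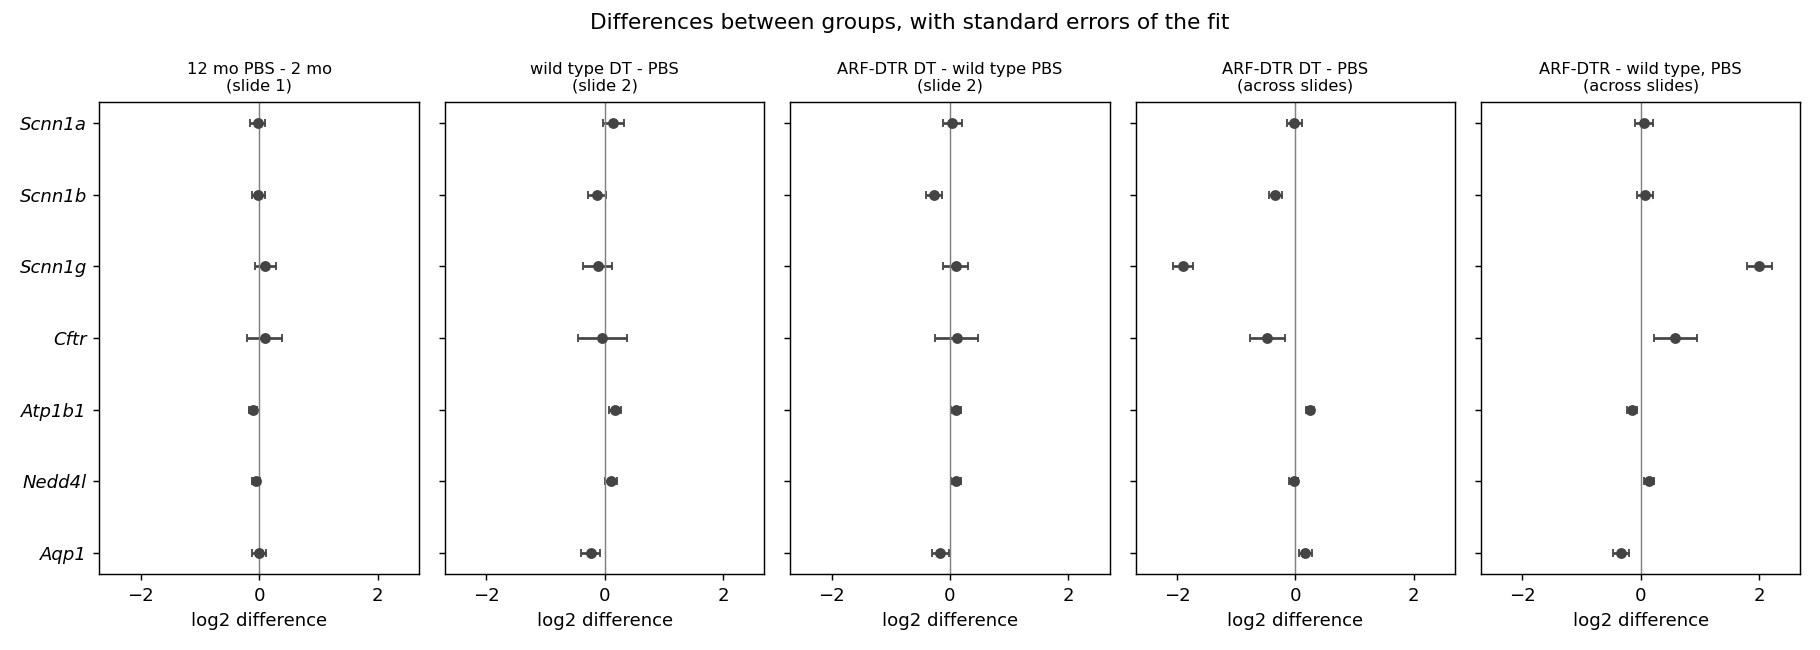
Log2 differences between groups for the 7 genes (points) with the standard error of the fit (bars); 3 panels compare groups of the same slide and 2 compare across slides. Scnn1g stands at -1.90 and 2.00 in the 2 panels across slides and between -0.12 and 0.11 in the 3 panels within a slide.

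The wider machinery was read from lists of channel regulators, pump subunits, aquaporins, chloride and bicarbonate transporters, potassium channels and adrenergic receptors and effectors, 77 genes without the 7 above. Of these, 71 were measured, and Hsd11b2, Aqp9, Slc9a3, Best1, Kcne1 and Kcnj16 did not pass the filter on dim probes. With age 4 rose and 4 fell (11.3%, against 6.14% of all genes), and with DT in wild type 0 passed (limma). The split with age was 0 higher and 8 lower under median scaling and 3 and 4 under quantile normalization. With DT in ARF-DTR 15 were higher and 4 lower (26.8%, against 29.3%). That split was 29 higher and 0 lower under median scaling and 12 and 8 under quantile normalization. Over all genes the share of calls that were higher was 54.1%, 83.2% and 49.9% under the 3 scalings. Against wild type with PBS, ARF-DTR with DT had 5 higher and 3 lower (11.3%, against 5.51%), and with PBS 6 higher and 7 lower (18.3%, against 23.6%). The first of these was 6 and 1 under median scaling, and 5 and 1 under quantile normalization. The second was 0 and 10 under median scaling, and 9 and 4 under quantile normalization. Slides did not overlap for 4 of the 71 genes, 2 in each direction, against 9.92% of all genes.

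Among the genes that changed with age, Atp1b3, another beta subunit of the sodium pump, was at 4.01, 3.76, 3.72 and 3.72 at 2 months and at 3.50, 3.53, 3.49 and 3.46 at 12 months. It fell by 0.31 ± 0.07 (limma adjusted p = 0.0144), without overlap, and passed without any single array. Kcnj15, an inwardly rectifying potassium channel, rose by 0.43 ± 0.10 (adjusted p = 0.0192), but did not pass without 2-month replicate 2, without 12-month PBS replicate 4 or under median scaling. Prss8 encodes prostasin, a protease that activates the channel by cutting its gamma subunit. It fell by 0.44 ± 0.10 (adjusted p = 0.0233), from 2.16 to 2.31 at 2 months to 1.72 to 1.90 at 12 months. Slc26a4, which encodes the anion exchanger pendrin, rose by 1.30 ± 0.35 (adjusted p = 0.0451), and Kcnn4 and Slc9a2 rose by 0.63 and 0.61. Atp1b2 fell by 0.48, and Spint1, an inhibitor of such proteases, fell by 0.31. Leaving out single arrays ended the calls of Prss8, Slc9a2 and Kcnn4 in 5 of 16 cases each, that of Atp1b2 in 6, that of Slc26a4 in 11 and that of Spint1 in 13. Without 2-month replicate 2 or 4, or 12-month PBS replicate 3 or 4, 2 of the 8 calls were left, and 3 without 12-month PBS replicate 1. Under median scaling the 4 genes that rose no longer passed, and under quantile normalization Slc9a2 did not.

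With DT in ARF-DTR, across slides, Slc26a4 read at 1.02, 0.12, 0.42 and 1.41 with PBS and at 2.19, 1.57, 2.20 and 2.23 with DT. The difference was 1.31 ± 0.35 (limma adjusted p = 0.0145), the groups did not overlap, and it passed without any single array. The wild type samples of slide 2 read at 0.81 and 0.88 with PBS and at 2.44 and 1.16 with DT. Slc26a9, a chloride transporter of airway epithelium, read at 0.73, 1.01, 0.93 and 1.09 with PBS and at 1.87, 1.64, 1.62 and 1.67 with DT. It was higher by 0.76 ± 0.17 (limma adjusted p = 0.0054), and against wild type with PBS on the same slide by 0.87 ± 0.20 (limma adjusted p = 0.0295). The second of these calls was lost without any 1 of 5 arrays, ARF-DTR DT replicates 1, 3 and 4 and both wild type PBS samples. Fxyd4, a small regulator of the pump, was higher by 1.34 ± 0.39, but did not pass without PBS replicate 1 or 2 or DT replicate 1 or 3. On slide 2, Fxyd4 averaged 0.41 in ARF-DTR with DT and -0.65 in wild type with PBS. The 2 wild type samples with DT read at 0.08 and 2.29, a mean of 1.18. The channel gene Asic1, also among the 15, was well above background in 1 of 4 ARF-DTR samples with PBS and in 4 of 4 with DT. In wild type lung Asic1 was well above background in 0 of 2 samples with PBS and in 2 of 2 with DT. Its size of change is not given. Usp2, a deubiquitinase that acts on the channel, was lower by a difference of -0.41, Aqp2 by -0.39 and Atp1b2 by -0.38. None of these 3 passed under median scaling, and each lost its call without any 1 of 3 to 6 arrays. On slide 2, Aqp2 averaged -0.87 in ARF-DTR with DT, -0.85 in wild type with PBS and -0.86 in wild type with DT. In that order, Atp1b2 averaged -0.79, -0.83 and -0.82, and Usp2 -0.43, 0.11 and 0.51.

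Within slide 2, Kcnj15 read at 2.18, 2.16, 2.01 and 2.15 in ARF-DTR with DT and at 1.36 and 1.13 in wild type with PBS. The difference of 0.88 ± 0.12 (limma adjusted p = 0.0033) passed without any single array. Wild type samples with DT read at 2.00 and 1.64. Kcnn4 and the glucocorticoid-induced gene Tsc22d3 were also higher than in wild type with PBS, by 0.75 and 0.63. Nr3c2, the mineralocorticoid receptor through which aldosterone raises the channel, was lower with a difference of -0.55, as was Aqp11, and Fxyd1 with -0.34. These 5 calls were lost without any 1 of 3 to 12 arrays, and those of Aqp11 and Fxyd1 also under both other scalings. In wild type with DT, Kcnn4 averaged -0.95 and Tsc22d3 5.48, against -0.81 and 5.44 in ARF-DTR with DT. In the same groups, Fxyd1 averaged 4.88 and 4.84, Nr3c2 -3.03 and -3.35, and Aqp11 -0.72 and -1.18. Usp2 was the 1 listed gene that differed from wild type with DT, by -0.93 ± 0.15 (limma adjusted p = 0.0143), and did not pass without wild type DT replicate 2.

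**Figure D5:**
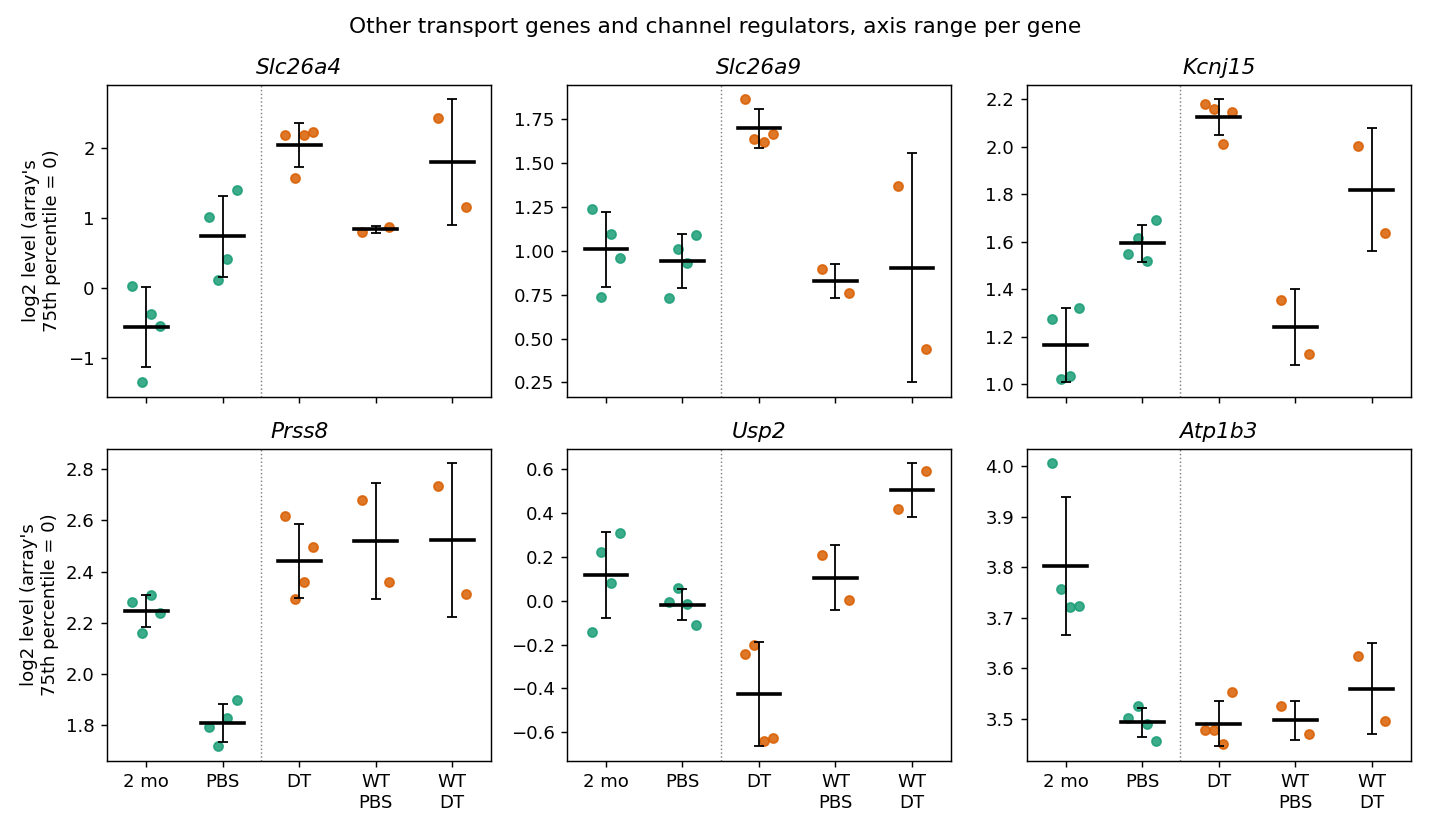
Log2 levels on each array (points; green for slide 1, orange for slide 2), with group mean (line) and SD (bars), of 6 listed genes, with a separate axis range for each gene and a dotted line between slides. Slc26a4 rises from a mean of -0.56 at 2 months to 0.74 at 12 months and 2.05 with DT, and Kcnj15 in ARF-DTR with DT lies above all other samples.

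With PBS, ARF-DTR against wild type across slides gave Prss8 lower with a difference of -0.71 ± 0.12 (limma adjusted p = 0.0024), which passed without any single array. Nr3c2, Fxyd5 and Aqp5 were lower with -0.62, -0.45 and -0.36, and did not pass without wild type PBS replicate 1. Aqp5, the water channel of alveolar type 1 cells, did not pass under quantile normalization either. Car4, Tsc22d3, Prkaca and Slc26a6 were higher by 0.62, 0.53, 0.39 and 0.37. None of these 4 passed under median scaling, or without wild type PBS replicate 1 or 2. Among the genes that were lower, Prss8 averaged 1.81 in ARF-DTR with PBS on slide 1. On slide 2 it averaged 2.44 in ARF-DTR with DT and 2.52 in wild type with PBS. In that order, Fxyd5 averaged 3.60, 4.07 and 4.05, Aqp5 5.06, 5.37 and 5.42, and Nr3c2 -3.42, -3.35 and -2.80.

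Markers of lung epithelial cells differed across the slides as well. With DT in ARF-DTR, 8 of 8 alveolar type 2 markers were higher, with a median of 0.58, and 4 of 8 under quantile normalization, against 15.9% of all genes higher and 13.5% lower. Of 8 alveolar type 1 markers 3 were higher, with a median of 0.00 over the list, and of 6 club cell markers 2 were higher and 1 lower. The summed level of the 8 alveolar type 2 markers was 989 to 1108 in ARF-DTR with PBS and 1383 to 1605 with DT. In wild type with PBS it was 1229 to 1405. Of these 8 type 2 markers, 1 was higher in ARF-DTR with DT than in wild type with PBS, within slide 2. Over all genes 2.12% were higher and 3.39% lower in that comparison. Of 8 pan-epithelial markers, 4 were higher with DT in ARF-DTR, with summed levels of 137 to 159 with PBS and 177 to 219 with DT, as against 200.2 to 218.5 in wild type with PBS. Of 10 ciliated cell markers, 4 were lower with DT, and 6 were lower than in wild type with PBS. The part of cell makeup in the values of the transport genes was not tested.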

How the data were processed

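Cy3-labelled lung RNA was hybridised to Agilent single-colour arrays. Images were read with Agilent Feature Extraction 10.10.1.1, per the submitters' processing notes. The deposited files hold 1 intensity per spot, background-subtracted and detrended per the file headers. The authors' series table holds log2 values, which matched the log2 intensity minus the array's 75th percentile. What else the authors did is not given in the sources used here.

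Control and outlier-flagged spots were left out and spots of a probe averaged. The log2 signal minus the array's 75th percentile was used, with no saturated spot among 59305 per array. A probe was kept if well above background on at least 4 of 16 arrays (37037 of 55681), and the brightest stood for its gene. On 16 arrays, 55.6 to 66.9% of probes were above background, and the number of arrays limits the precision. Symbols came from RefSeq accessions or symbols (27656 and 3722 probes), otherwise from the file.

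The fit of all 25574 genes used limma 3.58.1 (R 4.3.3, data.table in version 1.17.8, jsonlite 2.0.0). It had two-sided tests, 1 mean per group, standard errors after ± unless SD is named, and Benjamini-Hochberg adjustment at 0.05. From the lists, up to 4 passing genes per direction and comparison with the largest change are named, except 1 that is not reported here. The 8 genes nearest to Scnn1g are named as described there. Replicate numbers did not pair the samples. Genes, lists and tests were chosen with earlier results of these data known. The fit was tested on simulated data. Alternatives were other scalings, background correction, filters, probes, samples in the fit, a replicate block, leaving out each array, and centring by probe composition.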

Additional observations from a re-analysis of the deposited data

Results flagged for a closer look

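Among the 24 groups of 4 arrays checked (a probe of a member in a 4-array group), 1 held an array far from the rest. For Scnn1g at 2 months, replicate 2 read highest, at 0.93 against 0.69 to 0.73 in the other samples, and its gap was 0.863 of the range of the group, above Dixon's 95% critical value. Chance alone would single out about 1 in 20 such groups.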

How the results depend on the processing

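Across 26 alternatives, 0 members passed with age or with DT in wild type. Values of Scnn1g across slides kept their sign, and leaving out single arrays gave -2.06 to -1.78 for DT in ARF-DTR and 1.91 to 2.09 for ARF-DTR against wild type with PBS. Centring within classes of probe composition gave -1.21 and 1.21. With the replicate number as a block, they were -1.90 and 2.11. Same-numbered samples had correlations of deviations from -0.20 to 0.33, so the numbers were not taken as pairs. Small differences near 0 turned sign. Cftr with DT in wild type was 0.0355 under median scaling and 0.0163 under quantile normalization. With age, quantile normalization gave 0.0057 for Scnn1a and 0.0159 for Scnn1b, normexp gave 0.0160 for Aqp1, and composition classes gave 0.0892 for Aqp1 and 0.0226 for Nedd4l. Leaving out single arrays with age gave -0.127 to 0.0643 for Scnn1a, -0.0511 to 0.0431 for Scnn1b, -0.238 to 0.303 for Cftr and -0.0824 to 0.0802 for Aqp1. For Cftr with DT in wild type it gave -0.40 to 0.33. The Aqp1 difference for DT in ARF-DTR ranged from -0.13 to 0.43. Listed genes past the threshold with age numbered 8, but 5 with no filter on dim probes, 2 from only the arrays compared and 2 to 8 without single arrays. With DT in ARF-DTR they numbered 19, but 29 under median scaling and 14 to 22 without single arrays, and with DT in wild type 0, but 0 to 2 without single arrays (2 without wild type DT replicate 2). Median scaling moved the median of all genes to -0.12 with age, 0.18 with DT in ARF-DTR and -0.12 for ARF-DTR against wild type with PBS. Except where the alternative itself uses fewer arrays, the cause was not tested. Slide as a random block could not be fitted, since each group lies on 1 slide.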
